A study of Mus musculus with 6 samples.

Results

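The dual specificity MAP kinase phosphatases described here are 10 genes, *Dusp1*, *Dusp2*, *Dusp4*, *Dusp5*, *Dusp6*, *Dusp7*, *Dusp10*, *Dusp14*, *Dusp16* and *Dusp22*, chosen by name as members of one enzyme family. All 10 were among the 12153 genes with values, in RNA-Seq of Tregs sorted from B16.F10 melanomas on day 15 after tumor inoculation. There were 3 control libraries and 3 Nr3c1-Foxp3Cre libraries. Control mice carried floxed *Nr3c1*, the gene for the glucocorticoid receptor (GR), and Nr3c1-Foxp3Cre mice carried floxed *Nr3c1* with a YFP/Cre fusion driven by the *Foxp3* promoter, so that the receptor gene is cut in Foxp3-expressing cells. The labels name the Foxp3-YFP/Cre allele for the Nr3c1-Foxp3Cre group alone and give no age. They describe a sort of CD45, CD4 and CD25 stained cells, whereas the study's methods describe a sort of CD4+ Foxp3-YFP+ cells with a dump gate, so a difference in sorting between the groups cannot be told apart from genotype. Female and male mice were combined in the study, and nothing in the labels says that each library came from 1 separate mouse, so p-values measure only the spread between these libraries.

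The classic enzymes here, all but *Dusp14* and *Dusp22*, remove phosphate from both the threonine and the tyrosine in the activation loop of MAP kinases. In this way they switch off ERK, JNK or p38. Many of them are transcribed within minutes to hours of MAP kinase activation and act as negative feedback, and *Dusp1* is also a classic glucocorticoid-induced gene. In T cells, where the antigen receptor activates all of these kinases, they set how long the signal lasts.

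The deposited values are log2 CPM (counts per gene scaled to a common library total) after quantile normalization, which gives every library the same distribution, so a value reports where a gene ranks within its library. Reads per library cannot be recovered, and the depth is unknown. *Nr3c1* itself was at 7.15, 7.59 and 6.88 log2 CPM in the control libraries and 6.14, 5.45 and 5.90 in the Nr3c1-Foxp3Cre libraries (log2 fold change -1.38, limma adjusted p = 0.120), without overlap. *Tsc22d3*, the glucocorticoid-induced gene for GILZ, was lower in Nr3c1-Foxp3Cre Tregs (log2 fold change -1.56, limma adjusted p = 0.0342), whereas *Fkbp5*, another glucocorticoid-induced gene, had a log2 fold change of -0.16 with overlapping groups (limma adjusted p = 1.0). All 10 Treg markers had values, and their summed level was 4862 to 6600 CPM in control and 4969 to 5496 CPM in Nr3c1-Foxp3Cre libraries. *Foxp3* was at 3.39 to 4.42 log2 CPM in control and 3.50 to 4.47 in Nr3c1-Foxp3Cre libraries. Melanoma markers also had values in every library, 7 of 7 of them, at a summed 3409 to 9134 CPM in control and 3802 to 9537 CPM in Nr3c1-Foxp3Cre libraries. Because these are bulk samples, fewer cells of a type and less RNA per cell cannot be told apart.

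Of the 10 phosphatase genes, 0 passed a limma adjusted p of 0.05 (Benjamini-Hochberg over all genes), against 7 of 12153 genes, or 0.0576% of those tested. At an unadjusted p under 0.05 there were 2, *Dusp1* and *Dusp2*, both with lower values in Nr3c1-Foxp3Cre Tregs, against 3.26% of all genes in either direction and 1.65% in the lower direction. The groups did not overlap for 1 gene, *Dusp1*, against 7.41% of all genes in either direction and 3.73% in the lower direction. The log2 fold change was below 0 for 8 of the 10 genes, against 6136 of all 12153. Its median was -0.070, against -0.001 over all genes. Apart from *Dusp1* and *Dusp2*, the 8 genes had log2 fold changes between -0.093 and 0.12, each with a 95% interval that included 0.

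**Figure D1:**
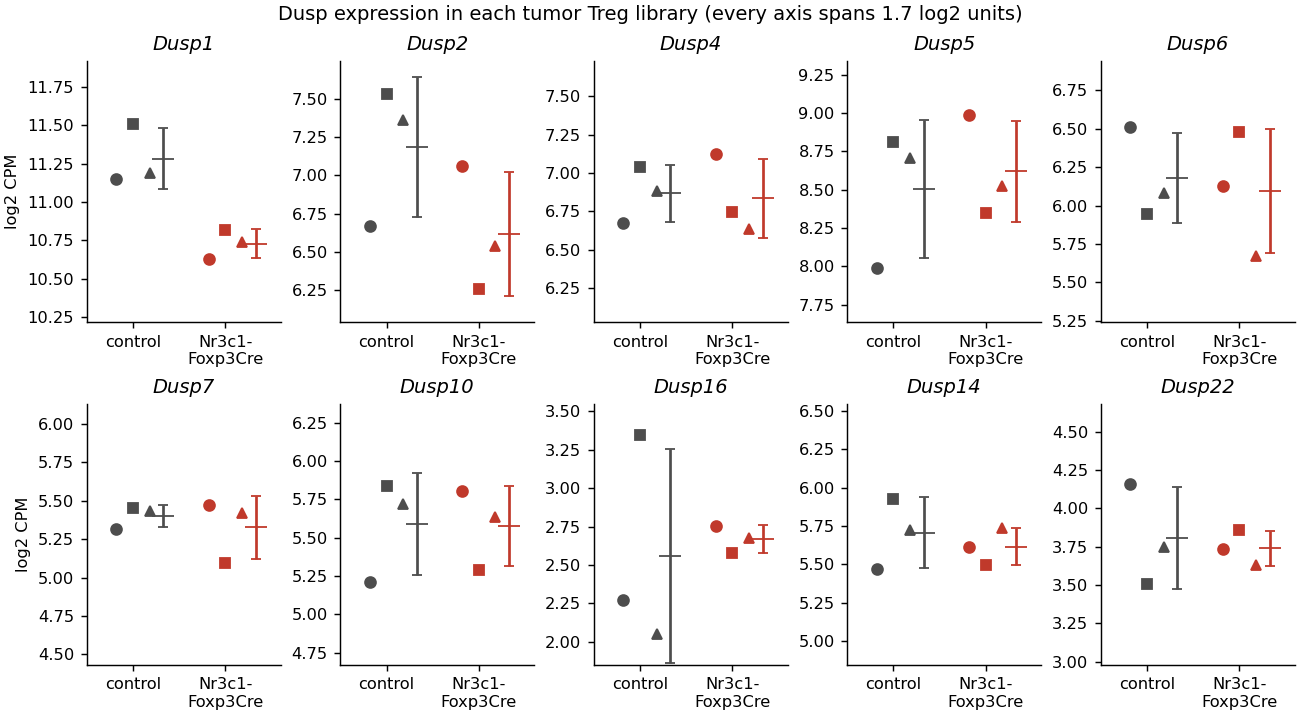
log2 CPM of each of the 10 phosphatase genes in the 3 control (grey) and 3 Nr3c1-Foxp3Cre (red) libraries, with replicate 1 as a circle, 2 as a square and 3 as a triangle, and the mean with its SD (n = 3) beside them. The *Dusp1* values of 10.63 to 10.81 in Nr3c1-Foxp3Cre libraries sit below the control values of 11.15 to 11.51, and the groups overlap for the other 9 genes.

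Compared per length, *Dusp1* was the most highly expressed of the 10 genes in these libraries. The order describes the bulk samples, which also held melanoma marker RNA, and the part of each cell type in it was not tested. The level was taken as log2 CPM per kilobase of annotated exon, as the mean of all 6 libraries. On this scale *Dusp1* was at 9.28 and *Dusp5* at 7.26, and the ranges of the 6 libraries did not overlap between them. *Dusp2* followed at 5.90 and *Dusp4* at 5.40, with overlapping ranges, so that the 4 inducible nuclear enzymes held the top 4 places. *Dusp14* was at 4.70, *Dusp6* at 4.49, *Dusp10* at 3.98 and *Dusp7* at 3.62, each overlapping with the next in the order. *Dusp22*, at 1.42, and *Dusp16*, at -0.35, were lowest, and neither overlapped with the gene above it. The length of the longest transcript was also used in place of all exons. With it the levels of *Dusp1* (9.79), *Dusp14* (5.01), *Dusp22* (2.18) and *Dusp16* (0.26) moved by more than their SD over the 6 libraries.

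*Dusp1* encodes MKP-1, an inducible nuclear phosphatase that acts mainly on p38 and JNK. The gene (ENSMUSG00000024190.7) lies on the minus strand at chr17:26505590-26562128 in mm10. Its values were 11.15, 11.51 and 11.19 log2 CPM in the control libraries and 10.63, 10.81 and 10.74 in the Nr3c1-Foxp3Cre libraries. Every Nr3c1-Foxp3Cre library was below every control library, and the spread within the Nr3c1-Foxp3Cre group was the smaller of the pair. The means were 11.28 ± 0.20 and 10.73 ± 0.095 log2 CPM (SD, n = 3 in each group), or geometric means of 2489 and 1694 CPM. The log2 fold change was -0.56 (standard error 0.13, 95% interval -0.85 to -0.26), which is a ratio of 0.681. Its unadjusted limma p was 0.00204, the 38th smallest of 12153 genes, and the limma adjusted p over all genes was 0.652. The exact two-sided permutation test gave p = 0.1, the smallest that 3 libraries against 3 can give.

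*Dusp1* ranked 23rd, 15th and 21st among the genes of the control libraries and 41st, 33rd and 36th among those of the Nr3c1-Foxp3Cre libraries. At this height few genes differed between the genotypes. Of the 91 genes with a mean of at least 10 log2 CPM, a limit chosen after the values were seen, *Dusp1* had the lowest log2 fold change, and it was the single gene with lower values and no overlap. The next lowest were *Tnfaip3*, an inhibitor of NF-κB signaling, at -0.30 (95% interval -0.80 to 0.21), and *B2m*, the light chain of MHC class I, at -0.21 (95% interval -0.51 to 0.088). The median of the 91 was 0.011.

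**Figure D2:**
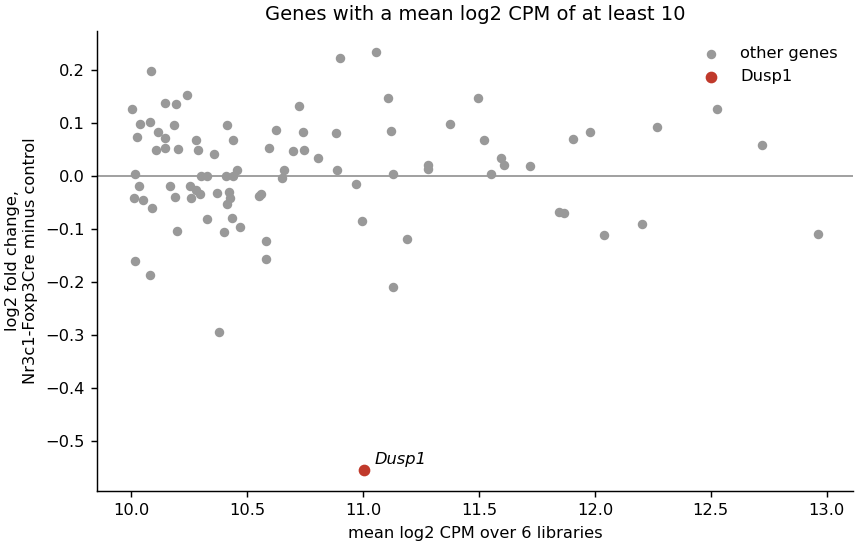
Mean log2 CPM over 6 libraries (x axis) against the log2 fold change, Nr3c1-Foxp3Cre minus control (y axis), for the 91 genes with a mean of at least 10 log2 CPM. *Dusp1* (red), with a fold change of -0.56, lies below all the other genes (grey), of which the next lowest is at -0.30.

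An annotated exon of *Dusp1* shares 11 bases, of 3311 in all its exons, with *Ergic1* on the other strand, and the library kit is not stated to keep strand. *Ergic1*, which encodes a protein of the ER-Golgi intermediate compartment, was at 7.91, 7.67 and 7.70 log2 CPM in control and 7.71, 7.49 and 7.49 in Nr3c1-Foxp3Cre libraries, with overlapping groups and a log2 fold change of -0.20 (95% interval -0.45 to 0.046).

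*Dusp2* encodes PAC-1, a nuclear phosphatase of activated T cells. The gene (ENSMUSG00000027368.6) lies at chr2:127336159-127338376 on the plus strand of mm10. Its values were 6.67, 7.53 and 7.36 log2 CPM in the control libraries and 7.06, 6.26 and 6.54 in the Nr3c1-Foxp3Cre libraries. The groups overlapped, because control 1 was the lowest control and lay below Nr3c1-Foxp3Cre 1. The means were 7.19 ± 0.46 and 6.62 ± 0.41 log2 CPM (SD, n = 3 in each group). The log2 fold change of -0.57 was as large as that of *Dusp1*, but its standard error of 0.25 gave a wider 95% interval, from -1.12 to -0.010. The unadjusted limma p was 0.0466, the limma adjusted p was 1.0 and the exact two-sided permutation p was 0.2. Leaving out single libraries moved the log2 fold change of *Dusp2* between -0.83 and -0.39, and that of *Dusp1* between -0.62 and -0.44. Unadjusted p-values for *Dusp2* were under 0.05 in 10 of 16 alternative analyses, whereas those for *Dusp1* were in 16 of 16, with limma adjusted p-values for *Dusp1* between 0.145 and 1.0.

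*Dusp5*, which encodes a nuclear phosphatase specific for ERK, was at 7.99, 8.81 and 8.71 log2 CPM in control libraries and 8.99, 8.35 and 8.52 in Nr3c1-Foxp3Cre libraries. The lowest and the highest of the 6 values were control 1 and Nr3c1-Foxp3Cre 1, and the log2 fold change was 0.12 (95% interval -0.39 to 0.62). The gene (ENSMUSG00000034765.6, chr19:53529109-53542431, plus strand) shares 547 of its 2473 exon bases with the antisense gene AC137853.2, which was not among the genes with values. Reads from the shared bases of the pair cannot be told apart without strand. *Dusp4*, which encodes the nuclear phosphatase MKP-2 (ENSMUSG00000031530.6, chr8:34807297-34819894, plus strand), was at 6.67, 7.04 and 6.89 log2 CPM in control libraries and 7.12, 6.75 and 6.64 in Nr3c1-Foxp3Cre libraries. Its groups covered nearly the same range, with a log2 fold change of -0.032 (95% interval -0.37 to 0.30). Of the 4 nuclear enzymes, the 95% intervals of *Dusp1* and *Dusp2* lay below 0 and those of *Dusp4* and *Dusp5* included 0.

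Within a library, the distance between *Dusp1* and the other members was compared as a difference of log2 CPM. *Dusp1* stood 4.09 ± 0.34 above *Dusp2* in control and 4.11 ± 0.50 in Nr3c1-Foxp3Cre libraries (SD, n = 3), a difference between genotypes of 0.012. Its lead over *Dusp4* was 4.41 ± 0.098 in control and 3.89 ± 0.34 in Nr3c1-Foxp3Cre libraries, a difference of -0.52. Over all members other than *Dusp2* this difference lay between -0.67 and -0.46. All Nr3c1-Foxp3Cre libraries were below all control libraries for *Dusp4*, *Dusp5*, *Dusp7* and *Dusp14*, a count for which no share over all genes was taken. Each difference equals the log2 fold change of *Dusp1* minus that of the other member, so it adds no evidence to those fold changes.

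**Figure D3:**
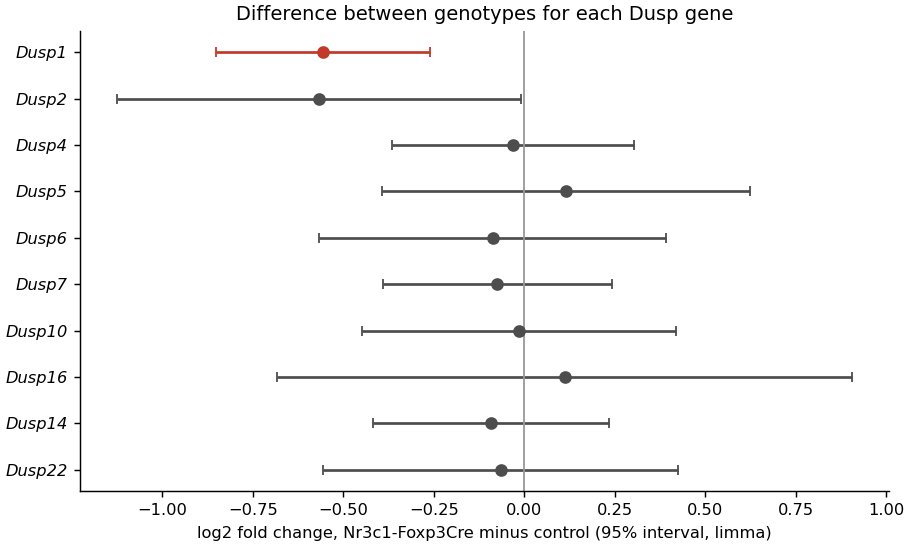
log2 fold change, Nr3c1-Foxp3Cre minus control, of each phosphatase gene with its 95% interval from limma (n = 3 libraries per group). The interval of *Dusp1* (red, groups without overlap) runs from -0.85 to -0.26 and that of *Dusp2* from -1.12 to -0.010, and the other 8 intervals include 0.

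The promoters of these nuclear enzymes are shown for *Dusp1* and *Dusp2*, the members with an unadjusted limma p under 0.05, and for *Dusp5*, another highly expressed member whose interval included 0. The groups of *Dusp2* overlapped, and a link between the motifs and the values was not tested. Each sequence runs 5′ to 3′ from 250 bases before to 50 bases after the RefSeq start, in RefSeq's GRCm38.p6 (the assembly of mm10). Capitals mark matches on either strand to the cAMP response element TGACGTCA, to its core TGACG, to the E-box CACGTG, and to the CArG box, the motif of serum response factor. The *Dusp1* sequence is chr17:26508423-26508722 on the minus strand, the *Dusp2* sequence chr2:127335909-127336208 on the plus strand and the *Dusp5* sequence chr19:53528895-53529194 on the plus strand. The RefSeq start of *Dusp1*, at 26508472, lies inside the GENCODE span given above. The 5′ end of that span, at 26562128, is not covered by this window.
Dusp1: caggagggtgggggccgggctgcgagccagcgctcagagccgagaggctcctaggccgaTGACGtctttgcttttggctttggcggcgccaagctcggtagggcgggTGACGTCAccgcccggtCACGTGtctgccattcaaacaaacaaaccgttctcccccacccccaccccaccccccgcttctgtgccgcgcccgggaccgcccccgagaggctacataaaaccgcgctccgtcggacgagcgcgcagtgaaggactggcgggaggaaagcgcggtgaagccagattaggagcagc
Dusp2: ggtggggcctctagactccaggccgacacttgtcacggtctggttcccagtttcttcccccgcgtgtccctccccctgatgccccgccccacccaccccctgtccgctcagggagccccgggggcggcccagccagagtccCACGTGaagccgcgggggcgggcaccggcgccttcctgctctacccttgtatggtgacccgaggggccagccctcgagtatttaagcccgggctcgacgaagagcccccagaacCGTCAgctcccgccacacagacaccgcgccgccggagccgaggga
Dusp5: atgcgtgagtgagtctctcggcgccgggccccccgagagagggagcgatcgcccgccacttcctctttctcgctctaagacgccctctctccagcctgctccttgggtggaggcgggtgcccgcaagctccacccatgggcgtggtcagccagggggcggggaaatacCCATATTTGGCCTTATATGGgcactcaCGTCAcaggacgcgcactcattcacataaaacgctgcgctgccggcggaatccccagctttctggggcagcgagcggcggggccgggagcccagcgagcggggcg

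The *Dusp1* promoter held the full cAMP response element at positions -143 to -136 from the start, which no other member's promoter held and which was found in 1.79% of 32851 promoters. It held a further core TGACG at -191 to -187, outside the full element, and an E-box at -126 to -121. The *Dusp2* promoter held an E-box at -109 to -104 and a core TGACG at 5 to 9, after the start. E-boxes were found in 7.15% of all promoters and the core TGACG, which also counts within full elements, in 20.8%. Of 9 member promoters, 4 held the core, those of *Dusp1*, *Dusp2*, *Dusp5* and *Dusp16*. The *Dusp5* promoter held 2 CArG boxes, at -82 to -73 and -72 to -63, directly next to each other, and a core TGACG at -55 to -51. CArG boxes were found in 1.63% of all promoters.

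Promoters were found for 9 of the 10 members, all but *Dusp4*. The palindromic glucocorticoid response element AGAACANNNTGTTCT matched 0 of the 9, against 3 of 32851 promoters, or 0.00913%. Its hexamer TGTTCT also matched 0 of the 9, against 19.0% of all promoters, and the AP-1 site TGANTCA matched 0 of the 9, against 7.81%. These windows say nothing about sites farther from the start, or at the GENCODE 5′ ends of *Dusp1*, *Dusp10* and *Dusp14*, which lie outside them. The 9 promoters were rich in G and C, with a GC content of 57.33% to 79.0% against a median of 52.67% over all promoters, and held 19 to 49 CpG dinucleotides against a median of 7.

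*Dusp6* and *Dusp7* encode the cytoplasmic phosphatases that are specific for ERK. *Dusp6* (ENSMUSG00000019960.8, chr10:99263231-99267489, plus strand) was at 6.51, 5.94 and 6.08 log2 CPM in control libraries and 6.13, 6.48 and 5.67 in Nr3c1-Foxp3Cre libraries. Its highest value was in control 1 and its lowest in Nr3c1-Foxp3Cre 3, with overlapping groups and a log2 fold change of -0.087 (95% interval -0.57 to 0.39). *Dusp7* (ENSMUSG00000053716.9, chr9:106368632-106375724, plus strand) was at 5.32, 5.45 and 5.44 log2 CPM in control libraries and 5.47, 5.09 and 5.42 in Nr3c1-Foxp3Cre libraries. Apart from Nr3c1-Foxp3Cre 2, all its values lay close together, and the log2 fold change was -0.074 (95% interval -0.39 to 0.24).

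*Dusp10* and *Dusp16* encode MKP-5 and MKP-7, which act on JNK and p38. *Dusp10* (ENSMUSG00000039384.8, chr1:184013302-184075636, plus strand) was at 5.21, 5.83 and 5.72 log2 CPM in control libraries and 5.80, 5.29 and 5.63 in Nr3c1-Foxp3Cre libraries. Each group held 1 low library, control 1 and Nr3c1-Foxp3Cre 2, and the log2 fold change was -0.015 (95% interval -0.45 to 0.42). *Dusp16* (ENSMUSG00000030203.17, chr6:134715468-134792625, minus strand), the lowest of the 10, was at 2.27, 3.35 and 2.05 log2 CPM in control libraries and 2.76, 2.58 and 2.67 in Nr3c1-Foxp3Cre libraries. Its control values spread over more than 1 log2 unit around the Nr3c1-Foxp3Cre values, and its log2 fold change of 0.11 had the widest interval of the 10 genes, from -0.68 to 0.91.

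*Dusp14* and *Dusp22* encode small atypical phosphatases without the kinase-binding domain of the classic enzymes, and both are known to damp T cell receptor signaling. *Dusp14* (ENSMUSG00000018648.15, chr11:84048041-84069261, minus strand) was at 5.47, 5.93 and 5.73 log2 CPM in control libraries and 5.61, 5.49 and 5.73 in Nr3c1-Foxp3Cre libraries, with a log2 fold change of -0.093 (95% interval -0.42 to 0.23). All its Nr3c1-Foxp3Cre values lay within the control range. *Dusp22* (ENSMUSG00000069255.13, chr13:30659999-30711231, plus strand) was at 4.16, 3.50 and 3.75 log2 CPM in control libraries and 3.73, 3.86 and 3.63 in Nr3c1-Foxp3Cre libraries. Its Nr3c1-Foxp3Cre values also lay within the control range, and the log2 fold change was -0.066 (95% interval -0.56 to 0.42). The limma adjusted p was 1.0 for each of the 8 members other than *Dusp1* and *Dusp2*, and their unadjusted p-values lay between 0.537 (*Dusp14*) and 0.942 (*Dusp10*).

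The spread between libraries of 1 genotype was shared by many of the genes. The median SD within groups was 0.273 log2 CPM over the 10 members, against 0.218 over all genes. Control 1 was the lowest control library for 7 of the 10 genes and control 2 the highest for 8. Among the Nr3c1-Foxp3Cre libraries, replicate 2 was the lowest for 6 genes and replicate 1 the highest for 6. The same order appeared in the mean of *Cd3e* and *Cd4*, genes of the T cell receptor complex and its coreceptor. Their mean was also lowest in control 1 and Nr3c1-Foxp3Cre 2. This pair was chosen from the Treg markers after their values were seen. *Tnfrsf4* and *Tnfrsf18* were instead lowest in control 3 and Nr3c1-Foxp3Cre 1, and *Ikzf2* in control 3 and Nr3c1-Foxp3Cre 2. The other Treg markers were lowest in the same libraries as the pair. Across the 6 libraries Pearson's r with the *Cd3e* and *Cd4* mean was 0.99 for *Dusp10*, 0.95 for *Dusp5*, 0.82 for *Dusp14*, 0.82 for *Dusp2*, 0.81 for *Dusp4* and 0.76 for *Dusp7*. It was 0.49 for *Dusp16* and 0.20 for *Dusp1*, whose values were ordered by genotype.

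*Dusp22* and *Dusp6* ran the other way, with r of -0.84 and -0.66. Both were higher in libraries with more melanoma marker RNA, with r of 0.85 for *Dusp22* and 0.90 for *Dusp6* against the mean of the 7 markers, whereas *Dusp14* was at -0.87 and *Dusp1* at -0.21. Summed, the melanoma markers were at 9134, 3409 and 6850 CPM in control libraries and 6189, 9537 and 3802 CPM in Nr3c1-Foxp3Cre libraries. These correlations describe 6 libraries that share one normalization, and no p is given for them. In a limma fit with a term for the melanoma marker mean, added after the data were seen, the log2 fold change of *Dusp1* was -0.56 (limma adjusted p = 0.145) and that of *Dusp2* was -0.59 (limma adjusted p = 0.703), with unadjusted p-values of 0.000419 and 0.0145. In that fit 0 of the 10 genes passed the adjusted threshold.

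**Figure D4:**
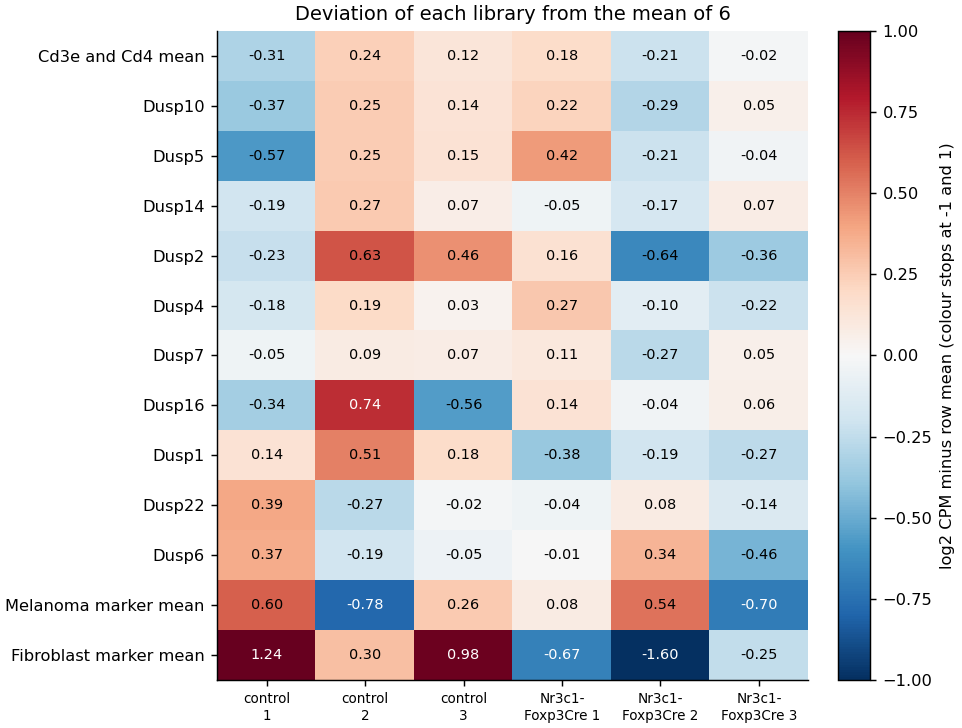
Deviation of each library from the mean of the 6 libraries, in log2 CPM, for the 10 phosphatase genes, the mean of *Cd3e* and *Cd4*, and the means of the melanoma and fibroblast markers. *Dusp10* and *Dusp5* follow the *Cd3e* and *Cd4* mean, *Dusp22* and *Dusp6* the melanoma markers, and *Dusp1* is above 0 in all control and below 0 in all Nr3c1-Foxp3Cre libraries.

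Markers of fibroblasts had lower means in Nr3c1-Foxp3Cre libraries, the same direction as *Dusp1*. All 6 had values, with a summed level of 463, 189 and 345 CPM in control libraries and 79.2, 167 and 111 CPM in Nr3c1-Foxp3Cre libraries. The collagen genes *Col1a1* (log2 fold change -1.87), *Col1a2* (-1.69) and *Col3a1* (-1.41) had an unadjusted limma p under 0.05, 2 of them without overlap. Of the 6 genes, 0 passed the limma adjusted threshold. *Pdgfra* and *Pdgfrb* were listed at -3.96 log2 CPM in Nr3c1-Foxp3Cre 2. The control library with the highest *Dusp1* value, control 2, was the lowest control for 5 of the 6 fibroblast markers. Across the 6 libraries r between *Dusp1* and the fibroblast marker mean was 0.637 (Spearman's rho 0.60), and within groups it was -0.718. That mean includes the -3.96 values of *Pdgfra* and *Pdgfrb*, and it was lowest in Nr3c1-Foxp3Cre 2 (1.95 log2 CPM). The summed level of that library, 167 CPM, was instead the highest of its group, as was its *Dusp1* value (10.81 log2 CPM). Of 12 myeloid markers, 10 had values, at a summed 393 to 589 CPM in control and 286 to 573 CPM in Nr3c1-Foxp3Cre libraries. NK cell markers had values for 0 of 4, CD8 T cell markers for 1 of 2, B cell markers for 1 of 4 and endothelial markers for 2 of 3 genes. The part of these cells in the *Dusp1* and *Dusp2* values was not tested.

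The genes whose pattern over the 6 libraries was most like that of *Dusp1* were *Cr1l*, a complement regulator, with r = 0.975, *Tmem254c* with r = 0.968 and *Npc2*, a lysosomal cholesterol carrier, with r = 0.958, among 5904 genes with a mean of at least 5 log2 CPM. Each was without overlap and lower in Nr3c1-Foxp3Cre libraries, with log2 fold changes of -0.18, -0.77 and -0.11. Because they were picked for likeness to *Dusp1* over these same libraries, this direction follows largely from the choice. Within groups r with *Dusp1* was 0.956, 0.849 and 0.750. With a minimum of 3 log2 CPM, over 9291 genes, *Glul*, the gene for glutamine synthetase (r = 0.974), took the place of *Npc2*. *Glul* was at 4.89, 5.47 and 4.94 log2 CPM in control libraries and 4.48, 4.66 and 4.45 in Nr3c1-Foxp3Cre libraries.

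Other genes were counted in 8 lists, 7 of the MAP kinase pathway and 1 of genes that tissue digestion can induce, in which 121 of 137 genes had values. Of these, 0 passed the limma adjusted threshold. An unadjusted p under 0.05 was reached by 3, against 3.26% of all genes, of which 1 was in the MAP kinase lists (*Rasa3*) and 2 were in the digestion list alone (*Nr4a1* and *Ier2*), each with higher values in Nr3c1-Foxp3Cre Tregs. The groups did not overlap for 9 genes with higher values, 3 of them in the digestion list, and for 1 with lower values, against 7.41% of all genes in either direction, and the median log2 fold change was 0.036. For comparison, the 10 phosphatase genes had 0 with higher and 2 with lower values at an unadjusted p under 0.05.

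Of the 2 remaining MAP kinase phosphatases of the family, *Dusp9* had values (log2 fold change 0.47, 95% interval -0.82 to 1.76) and *Dusp8* had none. Of 17 other atypical dual specificity phosphatases, 10 had values, 0 of them with an unadjusted p under 0.05, and the median log2 fold change was -0.092. The smallest p-values were those of *Rngtt*, the mRNA capping enzyme, at -0.14 (95% interval -0.42 to 0.14), and *Ptpmt1*, a mitochondrial phosphatase, at -0.10 (95% interval -0.42 to 0.21). Of 10 further phosphatases that act on MAP kinases, 9 had values, 0 with an unadjusted p under 0.05, and the PP2A subunits *Ppp2r1b* (0.16, 95% interval -0.11 to 0.42) and *Ppp2cb* (-0.10, 95% interval -0.34 to 0.14) had the smallest p-values.

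In the ERK cascade all 28 genes had values, and 1 had an unadjusted p under 0.05, a share near the 3.26% of all genes. This was *Rasa3*, a GTPase-activating protein that turns off Ras and Rap, at 7.07, 7.15 and 7.21 log2 CPM in control libraries and 7.49, 7.51 and 7.26 in Nr3c1-Foxp3Cre libraries, without overlap. Its log2 fold change was 0.28 (95% interval 0.042 to 0.51, exact permutation p = 0.1, limma adjusted p = 1.0). *Rps6ka3*, which encodes the ERK-activated kinase RSK2, was lower in every Nr3c1-Foxp3Cre library than in any control library, with a log2 fold change of -0.51 (95% interval -1.06 to 0.042). These were the 2 of 28 genes without overlap, against 7.41% of all genes in either direction. *Mapk3*, an ERK kinase gene named as a substrate of these phosphatases after its values were seen, had a log2 fold change of -0.11 (95% interval -0.43 to 0.21). Of 20 genes of ERK feedback and ERK response, 15 had values and 0 had an unadjusted p under 0.05. The transcription factor gene *Egr2* was higher without overlap (0.30, 95% interval -0.077 to 0.67), the 1 gene of the 15 without overlap, against the same 7.41%. *Spred1*, an inhibitor of Ras, had a log2 fold change of -0.35 (95% interval -0.80 to 0.10).

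In the JNK cascade 25 of 26 genes had values, 18 with a log2 fold change above 0, against 6017 of 12153 over all genes. The median was 0.109, with 0 genes at an unadjusted p under 0.05. The groups did not overlap for 2 genes, both with higher values, against 7.41% of all genes in either direction. The kinase gene *Map3k4* (0.50, 95% interval -0.057 to 1.06) and *Gadd45b*, which encodes an activator of that kinase (0.43, 95% interval -0.078 to 0.94), had the smallest p-values. In the p38 cascade 18 of 19 genes had values, with a median of 0.028 and 0 genes at an unadjusted p under 0.05. *Mapk11*, which encodes p38β (0.32, 95% interval -0.092 to 0.72), and *Mapkapk5*, a kinase downstream of p38 (0.25, 95% interval -0.10 to 0.61), had higher values without overlap. They were the 2 of 18 genes without overlap, against 7.41% of all genes in either direction.

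*Dusp1* is among the genes that enzymatic digestion of tissue can induce, so 20 genes known for that response were read beside it. All 20 had values, 14 with a log2 fold change above 0, against 6017 of 12153 over all genes, and the median was 0.14. *Nr4a1*, an immediate-early gene of T cell receptor signaling, was at 8.76, 8.96 and 9.18 log2 CPM in control libraries and 9.54, 9.40 and 9.30 in Nr3c1-Foxp3Cre libraries, with a log2 fold change of 0.45 (95% interval 0.16 to 0.73, exact permutation p = 0.1, limma adjusted p = 1.0). *Ier2*, another immediate-early gene, had a log2 fold change of 0.22 (95% interval 0.017 to 0.43, exact permutation p = 0.1, limma adjusted p = 1.0). Both were higher in every Nr3c1-Foxp3Cre library than in any control library, the opposite direction to *Dusp1*. In this list 3 of the 20 genes were without overlap, all with higher values, against 7.41% of all genes in either direction. The share of this response in the *Dusp1* values was not tested.

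**Figure D5:**
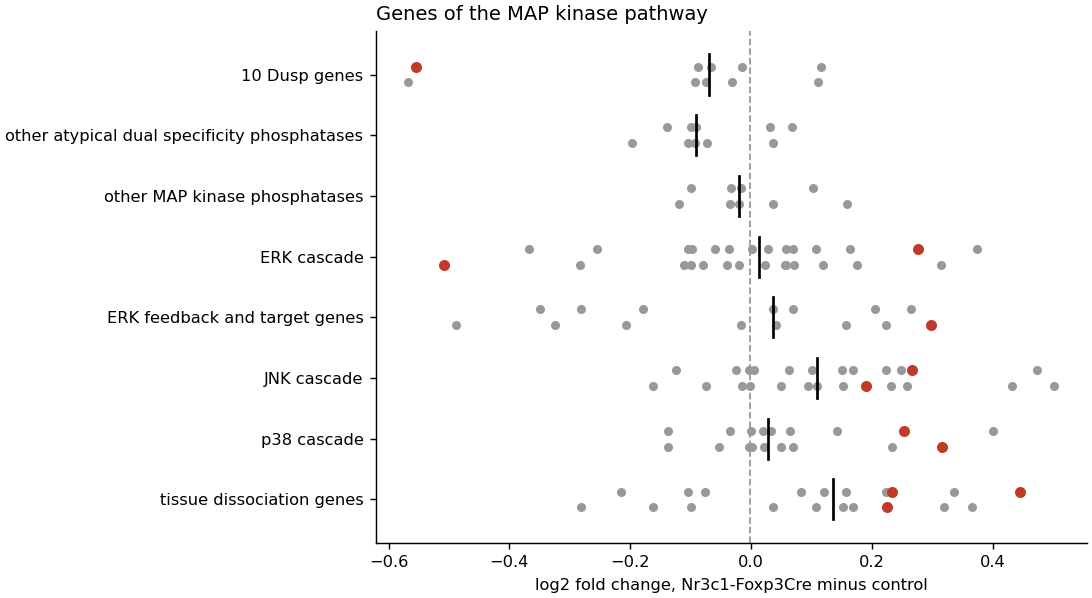
log2 fold change, Nr3c1-Foxp3Cre minus control, of the 10 phosphatase genes and of the genes of 7 of the 8 lists (1 point per gene, black bar at the list's median, red where the groups did not overlap, dashed line at the median of all genes). The red point of the phosphatases is *Dusp1* at -0.56, the red points of the other lists are at higher values except *Rps6ka3* at -0.51, and the list with *Dusp9* alone is not drawn.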

How the data were processed

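RNA-Seq was measured in 6 libraries of sorted tumor Tregs, 3 per genotype, grouped by the sample labels. Per the submitters' processing notes and the methods, reads were trimmed (Cutadapt), aligned to mm10 (STAR) and assigned to GENCODE M21 genes (RSEM). Genes under 1 CPM were dropped, the libraries were quantile normalized, and limma was used. The authors deposited log2 CPM values of 12153 genes made in this way. Counts cannot be recovered from them, so count models were not used, and 3 libraries per group limit the precision.

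The comparison used limma 3.58.1 (R 4.3.3) with lmFit and trended eBayes on every gene, with a single term for genotype, and p-values were adjusted by Benjamini-Hochberg over all genes at 0.05. The fit was tested on simulated data. Means of 3 against 3 were compared with exact two-sided permutation tests in scipy 1.17.1. Positions and exon lengths came from GENCODE M21, and promoters from RefSeq GRCm38.p6.

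The 10 genes, the pathway lists and the marker lists were chosen with earlier results of these data known. Genes named from each list were those with an unadjusted p under 0.05, at most 5 by smallest p, or the 2 of smallest p where fewer than 2 had one; the 3 genes most like *Dusp1* by Pearson's r among genes with a mean of at least 5 log2 CPM were also named, with *Nr3c1*, *Tsc22d3* and *Fkbp5* as checks. The 16 alternatives covered the variance model, library weights, a minimum level, other scalings, the replicate number as a block, a melanoma marker covariate chosen after seeing the data, and leaving out each library.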

Additional observations from a re-analysis of the deposited data

How the results depend on the processing

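Of the 10 phosphatase genes, 0 passed an adjusted p of 0.05 in limma or in any of its 16 alternatives, and the pathway lists likewise had 0. At an unadjusted p under 0.05 the count of 2 became 1 without the mean-variance trend and 1 with the replicate block, and was 1 to 2 when single libraries were left out, with 1 without control 2, control 3, Nr3c1-Foxp3Cre 2 or Nr3c1-Foxp3Cre 3. The count of members without overlap, 1, was 1 to 2 when single libraries were left out: *Dusp2* joined without control 1 or Nr3c1-Foxp3Cre 1, and *Dusp16* without control 2. Over all genes the 7 called became 0 without the trend, 19 with sample quality weights, 0 with the replicate block, 18 with the melanoma covariate and 0 to 8 when single libraries were left out, with 0 without control 3 or Nr3c1-Foxp3Cre 2, and 1 without Nr3c1-Foxp3Cre 1 or Nr3c1-Foxp3Cre 3. The causes of these differences were not tested.

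Of the fold changes of members in the alternatives, 144 kept their sign and 16 did not, none of the latter for *Dusp1* or *Dusp2*. Single libraries left out gave ranges of -0.18 to 0.068 for *Dusp4*, -0.14 to 0.27 for *Dusp5*, -0.28 to 0.12 for *Dusp6*, -0.15 to 0.044 for *Dusp7*, -0.20 to 0.13 for *Dusp10*, -0.21 to 0.017 for *Dusp14*, -0.14 to 0.51 for *Dusp16* and -0.22 to 0.11 for *Dusp22*. Sample quality weights gave -0.029 for *Dusp5*.

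Deviations from the group means correlated at -0.117, -0.329 and -0.025 between libraries of the same replicate number, so the numbers were not taken as pairs. With the replicate block the unadjusted limma p was 0.00504 for *Dusp1* and 0.0904 for *Dusp2*, with limma adjusted p = 1.0 for both. Without counts, the depth behind the low values of *Dusp16* is unknown.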
